A study of Mus musculus with 27 samples.

Results

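Cytosolic ribosomal protein genes encode the proteins of the large (Rpl) and small (Rps) subunits of the ribosome that translates nuclear messages. They were taken here as the rows of the normalised count table whose symbol begins with Rpl or Rps, leaving out the Rps6k kinases, Rps19bp1 and symbols that contain -ps, which mark processed copies. This gave 91 of 30153 rows. Of these, 77 were core genes, 46 of the large and 31 of the small subunit, 10 were paralogs of a core gene and 4 were other copies (Rps12l1, Rps12l2, Rps3a2 and Rps3a3). A gene was tested when it reached a normalised count of 10 in at least 3 libraries, as 86 of the 91 did. Rps12, Rpl10l, Rps12l2, Rps3a2 and Rps3a3 did not.

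Libraries were made from cells of mice that carried Prx1-CreER, the Ai14 tdTomato reporter and the Rag1 mutation, which removes mature lymphocytes. All groups shared these alleles and tamoxifen. Mice of both sexes, aged 8 to 12 weeks, were killed 3 days after the last of 2 doses, so that tdTomato marked cells in which the Prx1 promoter had driven the recombinase, and their progeny. Cells of muscle, periosteum and bone marrow around or in the femur and tibia were sorted as Prx1+ CD45- and split by CD105 and CD200 into 3 subpopulations. Cells without CD105 formed P1 when they carried CD200 and P2 when they did not, while cells with CD105 formed P3 whatever their CD200, with 3 libraries for each of the 9 groups. Tissues came from the same animals, but which animal gave which library was not given, so a p-value measures the spread between these libraries. Muscle was digested for 60 min, periosteum for 20 min, and marrow was flushed.

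Ribosomal protein mRNAs are among the most abundant of growing cells, since each ribosome takes a copy of nearly every protein. They are short and stable, and many begin with a C followed by a run of pyrimidines, the 5′ terminal oligopyrimidine tract, through which mTOR signalling and the binding protein LARP1 regulate their translation. Paralogs that replace a core protein in some tissues are known, among them RPL3L in striated muscle and RPL39L in the testis. Red cell precursors are known to lose ribosomes and their mRNAs as they end maturation.

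The start sites of genes that carried the results below are shown first, as 10 bases before and 20 from the annotated start on, with the letters CTTTC in capitals. The sequences are RefSeq's (GRCm38.p6), whose table held 66 of the 91 genes.
Rps27, chr3:90213629-90213658, minus strand: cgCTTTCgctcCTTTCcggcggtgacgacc
Rps27l, chr9:66946076-66946105, plus strand: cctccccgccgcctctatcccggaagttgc
Rpl38, chr11:114668570-114668599, plus strand: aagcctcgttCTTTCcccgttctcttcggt
Rps6, chr4:86857348-86857377, minus strand: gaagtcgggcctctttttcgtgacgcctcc
Rps24, chr14:24490668-24490697, plus strand: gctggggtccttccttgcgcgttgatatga
Rpl36a, chrX:134585644-134585673, plus strand: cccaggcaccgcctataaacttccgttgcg
Rpl36al, chr12:69184048-69184077, minus strand: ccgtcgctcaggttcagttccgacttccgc
Rpl39l, chr16:10170218-10170247, plus strand: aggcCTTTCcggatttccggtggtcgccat
Rpl3l, chr17:24727816-24727845, plus strand: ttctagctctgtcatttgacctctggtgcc
CTTTC stood in this window of 13 of 57 core genes with an entry (22.8%) and 2 of 9 paralogs (22.2%), against 3.66% of all 27025 genes. Read on the other strand, as GAAAG, it stood in 5.26% of core genes and 3.54% of all. Rps27 holds the letters and its paralog Rps27l does not. Absence of CTTTC says only that these 5 letters are not in the window: Rps6, for one, has a longer run of pyrimidines there.

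The summed normalised counts of a library ranged from 8.63e+06 to 2.62e+07. Counts were deposited already normalised, so sequencing depth is unknown. Erythroid genes moved with P2: the share of globins was 44.2% to 47.3% in libraries of bone marrow P2, 24.1% to 38.6% in those of periosteum P2 and at most 4.28% in the other groups. Each of the 10 erythroid genes of the list, Alas2 and Gata1 among them, had its highest group mean in bone marrow P2. The 10 myofibre genes took 10.8% to 12.01% of the sum in muscle P2 and at most 0.362% elsewhere. The 6 mesenchymal markers took 0.598% to 0.609% in bone marrow P1 and 0.00165% to 0.00356% in bone marrow P2, where Prrx1, the Prx1 gene itself, had a mean of 110 against 1969 in P1. Each of the 6 had its lowest group mean in bone marrow P2. The 6 osteoblast markers took 18.02% to 23.2% of the sum in bone marrow P1, at most 0.0338% in P2 and 0.424% to 1.04% in P3. Leukocyte markers took 0.104% to 0.733% of the sum in the 9 bone marrow libraries, and Ptprc (CD45) was above 0 in all but 1 of the 27. In bulk libraries, fewer cells of a type and less of an mRNA per cell cannot be told apart.

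Ribosomal protein genes took the largest part of the library in P3 of bone marrow and periosteum and the smallest in P2 of bone marrow. Their share of the summed counts was 2.97%, 4.86% and 4.67% in the 3 libraries of bone marrow P3. In bone marrow P2 it was 0.760%, 0.717% and 0.515%, and in bone marrow P1 1.39%, 1.05% and 1.38%. These 3 groups did not overlap. Periosteum P3 stood at 3.67% to 4.12%, P1 at 3.07% to 3.45% and P2 at 1.53% to 1.81%, also apart. In muscle the range was narrower, with 2.50% to 3.09% in P1, 2.14% to 2.35% in P2 and 1.88% to 1.93% in P3. With globin and myofibre genes taken out of the sum, periosteum P2 rose to 2.27% to 2.67% and bone marrow P2 to 0.927% to 1.36%, which overlaps the 1.05% to 1.42% of bone marrow P1. Muscle P2 rose to 2.48% to 2.66%, which overlaps the 2.51% to 3.11% of muscle P1. Adding the -ps rows changed the members' sum by 2.83% to 5.63% of its size.

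**Figure D1:**
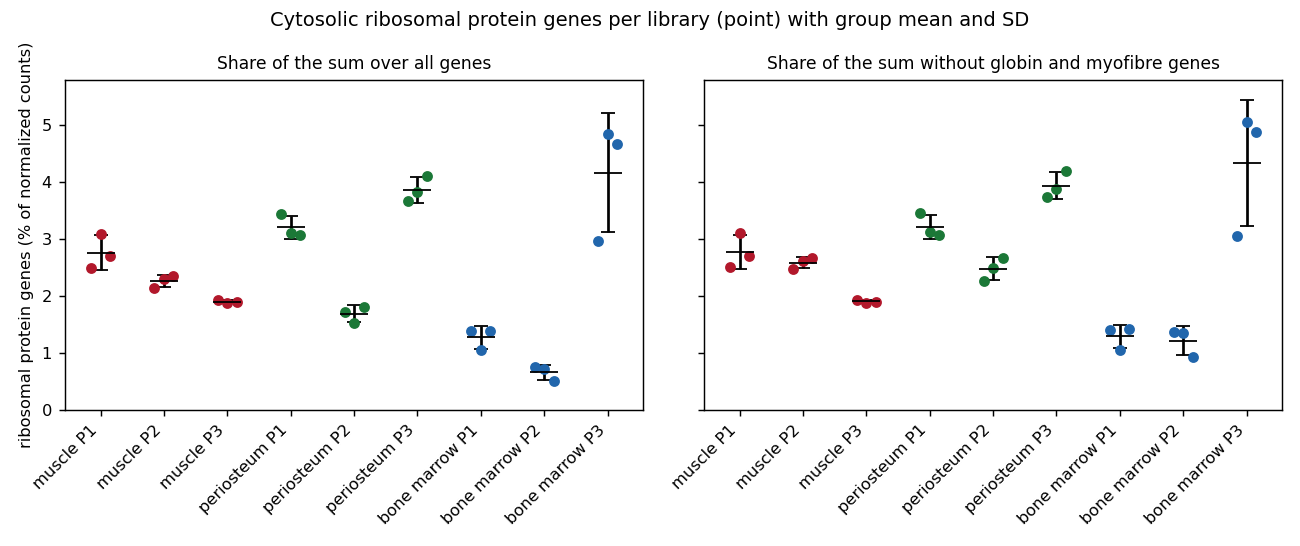
Share of the summed normalised counts (percent, y axis) taken by cytosolic ribosomal protein genes in each of 27 libraries (points) by group (x axis), with group means (bars) and SD (whiskers, n = 3), over all genes (left) and without globin and myofibre genes (right). Bone marrow P3 reaches 4.86% while bone marrow P2 stays at or under 0.760%, and on the right P1 and P2 overlap in bone marrow and in muscle.

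Gene by gene, bone marrow P2 was again lowest, while the order of the other groups was not that of the shares. Of 76 core genes tested, 69 had their lowest group mean in bone marrow P2, 6 in muscle P3 and 1, Rpl3, in muscle P2. The highest mean lay in periosteum P1 for 26, muscle P2 for 23, bone marrow P3 for 16 and periosteum P3 for 8. The count of the median core gene was 3597 ± 544 (SD, n = 3) in muscle P1, 4867 ± 390 in muscle P2 and 2377 ± 75.8 in muscle P3. It was 4886 ± 459, 3367 ± 597 and 4617 ± 375 in P1, P2 and P3 of periosteum. In bone marrow it was 2509 ± 89.7, 1421 ± 444 and 4216 ± 1312. The wide spread of bone marrow P3 came from replicate 1, whose median core gene was at 2717, against 4778 and 5154.

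**Figure D2:**
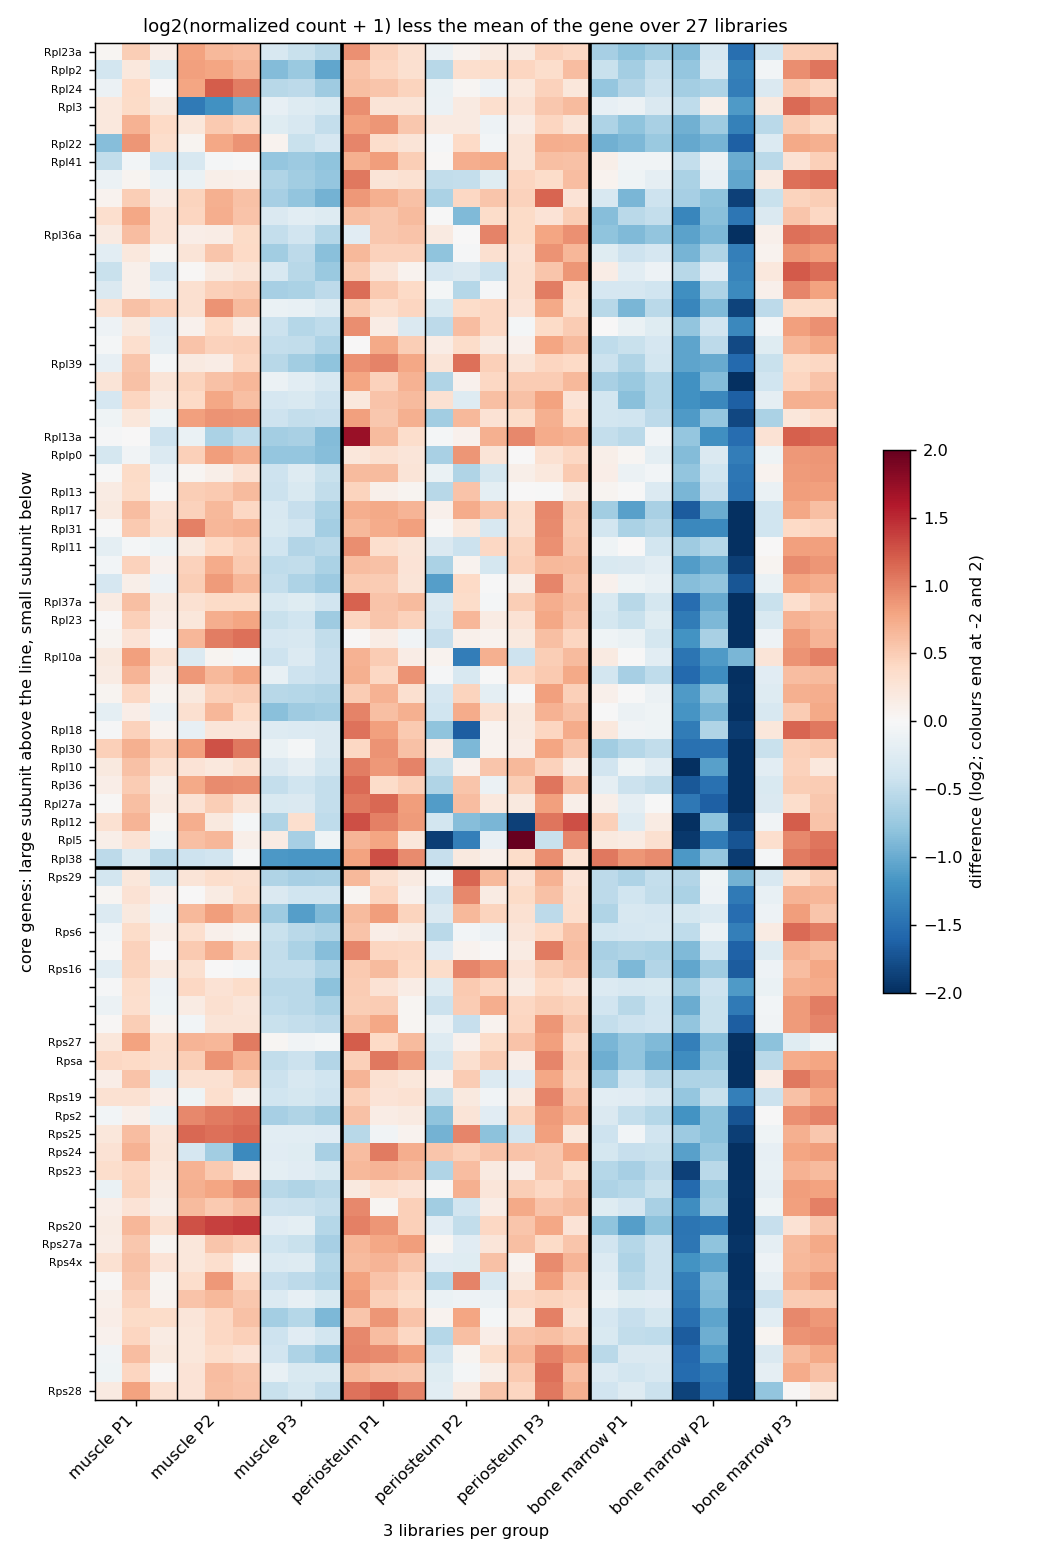
Level of 74 core genes (rows, large subunit above the line and small subunit below, ordered by the difference of bone marrow P1 and P2) in 27 libraries (columns, 3 per group), as log2(normalised count + 1) less the gene's mean over all libraries. Most rows share a pattern, low in bone marrow P2 and muscle P3, while Rpl3, Rps24 and Rpl38 depart from it. Genes named in the text are labelled.

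Differences between tissues were tested over the 3 subpopulations together, with limma on log2(normalised count + 1). A gene passed at a Benjamini-Hochberg adjusted p below 0.05 over the 18442 genes kept, and was a differentially expressed gene (DEG) when its log2 fold change was also beyond 1.5 in size. Shares of all genes that passed are given for this main fit and for values centred on the median core gene. For counts under other alternatives or at an unadjusted p they are not given. Core genes were higher in periosteum than in bone marrow. Of 76 core genes, 58 passed as higher and 0 as lower, where 6.4% of all genes passed as higher. Their median log2 fold change was 0.80, against -0.69 over all genes tested. None reached the DEG fold, the largest changes being those of Rps28 (1.49), Rps27 (1.35) and Rpl17 (1.33). In no core gene were the libraries of the tissues apart, since P1, P2 and P3 differ within each. The count stayed between 55 and 61 with any library left out. Rps19, whose loss impairs red cell formation, differed by 0.54 (SE 0.15, adjusted p = 0.0107), and Rpl11, which binds MDM2 together with Rpl5, by 0.61 (SE 0.21, adjusted p = 0.0379). Leaving out any of 7 libraries ended the call of Rpl11, with an adjusted p of up to 0.0824, as did quantile normalisation (0.0985). Without a trend the calls of Rps19 (0.11) and Rpl11 (0.105) were lost.

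Taken over the 3 subpopulations together, muscle stood between the other tissues, but this order did not hold within each. By the mean count of the median core gene, muscle P1 (3597) lay between bone marrow P1 (2509) and periosteum P1 (4886). Muscle P2 (4867) was above periosteum P2 (3367) and bone marrow P2 (1421). Muscle P3 (2377) was below bone marrow P3 (4216) and periosteum P3 (4617). The tests of tissues took the 3 subpopulations together. Against bone marrow, 36 core genes passed as higher, where 13.9% of all genes did, and 2 as lower, where 13.7% did. The median log2 fold change was 0.49, against -0.10 over all genes, and quantile normalisation gave 21 higher and 7 lower. Rps27 had no overlap between tissues, with 4353 to 9360 in muscle and 1158 to 4336 in bone marrow, and differed by 1.29 (SE 0.16, adjusted p = 8.85e-07). There was 1 core DEG, where 10.9% of all genes were DEGs in that direction. The 2 genes that went the other way were Rpl38 (-0.76, SE 0.19, adjusted p = 0.00316) and Rpl3 (-0.42, SE 0.15, adjusted p = 0.0424). Neither was lower in muscle in each subpopulation. In P2, Rpl38 was at 1574 to 2037 in muscle and at 566 to 1225 in bone marrow. In P1, Rpl3 was at 7314 to 8320 and at 5242 to 5892. In the other subpopulations muscle was lower without overlap, save for Rpl3 in P2, where libraries overlapped. Leaving out any of 15 libraries ended the call of Rpl3, with an adjusted p of up to 0.102, and the same sum gave -0.21 (0.224) and quantile normalisation -0.73.

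Against periosteum, 13 core genes passed as lower in muscle, where 5.34% of all genes did, and 0 as higher. The median was -0.31 while that of all genes was 0.56. Without periosteum P2 replicate 1 the count was 23. Rpl41, which encodes the shortest ribosomal protein, was the core gene with no overlap, with 7205 to 12574 in muscle and 12897 to 22680 in periosteum, and fell by 0.96 on the log2 scale (SE 0.13, adjusted p = 1.53e-05). Rpl38 (-1.12), Rpl13a (-1.09), Rps24 (-0.89) and Rpl3 (-0.76) also passed.

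In muscle, most core genes did not pass between P2 and P1, but a few moved apart from the rest. The core median was 0.30 higher in P2, against -0.24 over all genes, and this sign turned to -0.36 when libraries were set to the same sum, to -0.17 when that sum left out globin and myofibre genes, and to -0.21 under quantile normalisation, while the median of all genes moved to -0.77, -0.61 and 0.03. With the same sum, 7 core genes passed as lower and 0 as higher. Of 76 core genes, 2 passed as higher, where 4.99% of all genes did, and 2 as lower, where 4.12% did. Rpl3 was at 7403, 8320 and 7314 in muscle P1 and at 2407, 2775 and 3271 in P2. All P2 libraries lay below all others of muscle, and the fall was 1.46 on the log2 scale (-1.46, SE 0.26, adjusted p = 6.49e-04). Rps24 was at 2129, 2813 and 2077 in P1 and at 1376, 1082 and 724 in P2 (-1.18, SE 0.34, adjusted p = 0.0309), a call lost without muscle P1 replicate 1, 2 or 3 or muscle P2 replicate 2 or 3 (adjusted p up to 0.156) or without a trend in eBayes (0.12), while the same sum gave -1.83. Rps2 rose from 9018, 10014 and 8524 to 18312, 19197 and 19939 (1.06, SE 0.25, adjusted p = 0.00809), a call lost with libraries set to the same sum (0.40, adjusted p = 0.157) or without a trend in eBayes (0.146). Rpl24 rose by 0.90 (SE 0.26, adjusted p = 0.0282), without overlap, and lost its call without muscle P1 replicate 1 or 3 or muscle P2 replicate 2 or 3 (adjusted p up to 0.129, limma). Its change was 0.25 with the same sum (adjusted p = 0.601), 0.43 without globin and myofibre genes in the sum (0.295), 0.33 under quantile normalisation (0.44) and 0.90 without a trend (0.191). The count of 4 was 2 without muscle P1 replicate 1 or 3 or muscle P2 replicate 2 or 3, 9 without periosteum P2 replicate 1, bone marrow P2 replicate 3 or bone marrow P3 replicate 1, 8 without periosteum P2 replicate 2 and 7 without bone marrow P2 replicate 2. Myofibre genes moved with this comparison, and their part in it was not tested.

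All 76 core genes were lower in P3 than in P1 of muscle, and none passed by limma. In 70 of 76 the 3 libraries of P3 lay below the 3 of P1, where 12.8% of all genes did so. The median was -0.63, against 0.07 over all genes, and single genes lay between -1.03 and -0.24. At the adjusted threshold, 0.141% of all genes passed as lower. At an unadjusted p under 0.05 there were 41 core genes, and with the 2 groups fitted alone 16 passed as lower. The shares of all genes for these last 2 counts are not given here. Rps6, the substrate of S6 kinases, was at 4461, 6022 and 5014 in P1 and at 3424, 3201 and 3080 in P3 (-0.67, SE 0.27, adjusted p = 0.555). Endothelial markers took 0.206% to 0.349% of the sum in muscle P3 and 0.0354% to 0.0922% in P1. Myofibre genes took 0.0132% to 0.0282% in P3 and 0.217% to 0.362% in P1, and the 3 satellite cell markers 1.78e-04% to 3.27e-04% and 0.00953% to 0.0125%. The part of these markers in the result was not tested.

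In periosteum, core genes were lower in P2 than in P1 and did not pass between P3 and P1. Of 76, 14 passed as lower in P2, where 10.7% of all genes did, and 0 as higher, with a median of -0.61 against 0 over all genes. Of these, 2 genes reached the DEG fold in this direction, where 10.1% of all genes did, Rpl18 and Rpl5. Rpl18 was at 5967, 4941 and 4025 in P1 and at 1605, 893 and 2948 in P2 (-1.60, SE 0.36, adjusted p = 0.00305). Rpl5, part of the 5S ribonucleoprotein, was at 397, 427 and 291 in P1 and at 66.6, 95.1 and 220 in P2 (-1.70, SE 0.60, adjusted p = 0.0483), and leaving out any of 23 libraries ended its call (adjusted p up to 0.133). Rpl38 fell by 1.07 (-1.07, SE 0.32, adjusted p = 0.023), and lost its call without periosteum P1 replicate 2 or P2 replicate 1 (adjusted p of 0.0802 and 0.0762, limma) and without a trend (0.0907). With the groups fitted alone the calls of Rpl18, Rpl5 and Rpl38 were lost (0.241, 0.286 and 0.175). The count of 14 was 3 without periosteum P1 replicate 1, 6 without P1 replicate 2, 4 without P2 replicate 1, 9 without any library of muscle P3 or without bone marrow P1 replicate 1, and 0 by limma (22 at an unadjusted p under 0.05) with the groups fitted alone. With libraries set to the same sum it was 59, a scaling applied to all genes, whose share under it is not given here. Globin stood at 31.6% ± 7.27 (SD, n = 3) of the sum in the same P2 libraries, and osteoblast markers at 5.34% to 10.6% in P1 and at most 0.0679% in P2, and the part of either was not tested. Between P3 and P1, 0 core genes passed by limma, where 4.33% of all genes passed in either direction. At the looser threshold of an unadjusted p under 0.05 there was 1 core gene. The median was -0.09, and 0.25, 0.27 and 0.05 with the same sum, the same sum without globin and myofibre genes and quantile normalisation.

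The widest changes were those of bone marrow. All 76 core genes were lower in P2 than in P1, and 42 passed, where 11.4% of all genes passed as lower. The median was -0.87, against 0.61 over all genes. In 52 the libraries did not overlap, where 23.6% of all genes were lower without overlap. DEGs numbered 5, where 10.4% of all genes were in that direction. Rpl38, known for a role in the patterning of the vertebrate skeleton, was at 4360, 3891 and 4060 in P1 and at 949, 1225 and 566 in P2 (-2.24, SE 0.32, adjusted p = 1.34e-05). Rpl27a was at 1374, 1117 and 1251 and at 470, 405 and 291 (-1.70, SE 0.38, adjusted p = 0.00155). Rpl5 was at 284, 278 and 308 and at 64.0, 93.5 and 74.1 (-1.91, SE 0.60, adjusted p = 0.0169), and lost its call without P2 replicate 1 (adjusted p = 0.056). Rps28 (-1.58) and Rpl36 (-1.51) were the other two. Rps27a, which encodes a ubiquitin fusion, fell by 0.94 (-0.94, SE 0.26, adjusted p = 0.00735), a call lost without P2 replicate 3 (adjusted p = 0.0654). Rplp0, often used as a reference gene, differed by -0.83 (SE 0.29, adjusted p = 0.0292, lost without P1 replicate 1 or 2 or P2 replicate 1 or 3, up to 0.188) and Rps6 by -0.32 (SE 0.27, adjusted p = 0.377). The count of 42 was 19 without P2 replicate 3 and 27 without P1 replicate 1. With libraries set to the same sum without globin and myofibre genes, 6 passed as lower and 1 as higher and the median was -0.15. On that scale Rps27a changed by -0.23 (adjusted p = 0.496), Rplp0 by -0.11 (0.725), Rpl5 by -1.20 (0.131, limma) and Rpl27a, whose call was kept, by -0.99. The calls of Rps27a and Rplp0 were also lost without a trend (0.0804 and 0.162) and with the groups fitted alone (0.0532 and 0.0906). Globin took 44.2% to 47.3% of the sum in these P2 libraries and at most 2.89% in those of P1, while osteoblast markers took 18.02% to 23.2% in P1 and at most 0.0338% in P2, and the part of either in the result was not tested.

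In P3 of bone marrow, core genes were higher than in P1. Of 76, 19 passed as higher, where 3.51% of all genes did, and 0 as lower, with a median of 0.80 against 0 over all genes. In 48 all P3 libraries lay above all P1 libraries, where 18.4% of all genes did. Rpl36a was at 781, 744 and 790 in P1 and at 1467, 2933 and 2860 in P3 (1.58, SE 0.38, adjusted p = 0.00996) and was the 1 core DEG, where 3.14% of all genes were DEGs in that direction. Rpsa, the laminin receptor of the small subunit, was at 992, 1125 and 993 and at 1338, 3268 and 3362 (1.24, SE 0.38, adjusted p = 0.0491). Rplp2, a stalk protein, rose by 1.18 (SE 0.30, adjusted p = 0.0152) and Rps6 by 1.12 (SE 0.27, adjusted p = 0.00998). P3 replicate 1 was the lowest of the 3 in each of these, and the count was 47 without it. Without P3 replicate 2 or 3 the count was 0 by limma, with 35 and 36 at an unadjusted p under 0.05, and the calls of Rpl36a, Rpsa, Rplp2 and Rps6 were lost, with adjusted p-values up to 0.0739, 0.26, 0.125 and 0.0884 (limma). The call of Rpsa was lost without any of 18 libraries and that of Rplp2 also without P1 replicate 2. Without P1 replicate 1, 2 or 3 it was 6, 3 and 5, and without periosteum P2 replicate 2 or bone marrow P2 replicate 3 it was 32 and 34. With libraries set to the same sum, 72 passed, the changes of Rpl36a, Rpsa, Rplp2 and Rps6 being 2.55, 2.21, 2.15 and 2.09. That scaling was applied to all genes, and the share of all genes that passed under it is not given here. With the groups fitted alone 2 passed, and there and without a trend the calls of Rpsa, Rplp2 and Rps6 were lost (adjusted p up to 0.155, limma). Cell cycle genes took 0.217% to 0.309% of the sum in bone marrow P3 and 0.00647% to 0.0177% in P1, osteoblast markers 0.424% to 1.04% and 18.02% to 23.2%. Cell cycle genes were also at 0.232% to 0.358% in bone marrow P2, and at 0.187% to 0.244% in periosteum P2 against 0.0138% to 0.0185% in its P1, groups in which core genes were lower than in P1. The markers' part in the result was not tested. The P2 and P3 comparisons of a tissue share its P1 libraries.

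**Figure D3:**
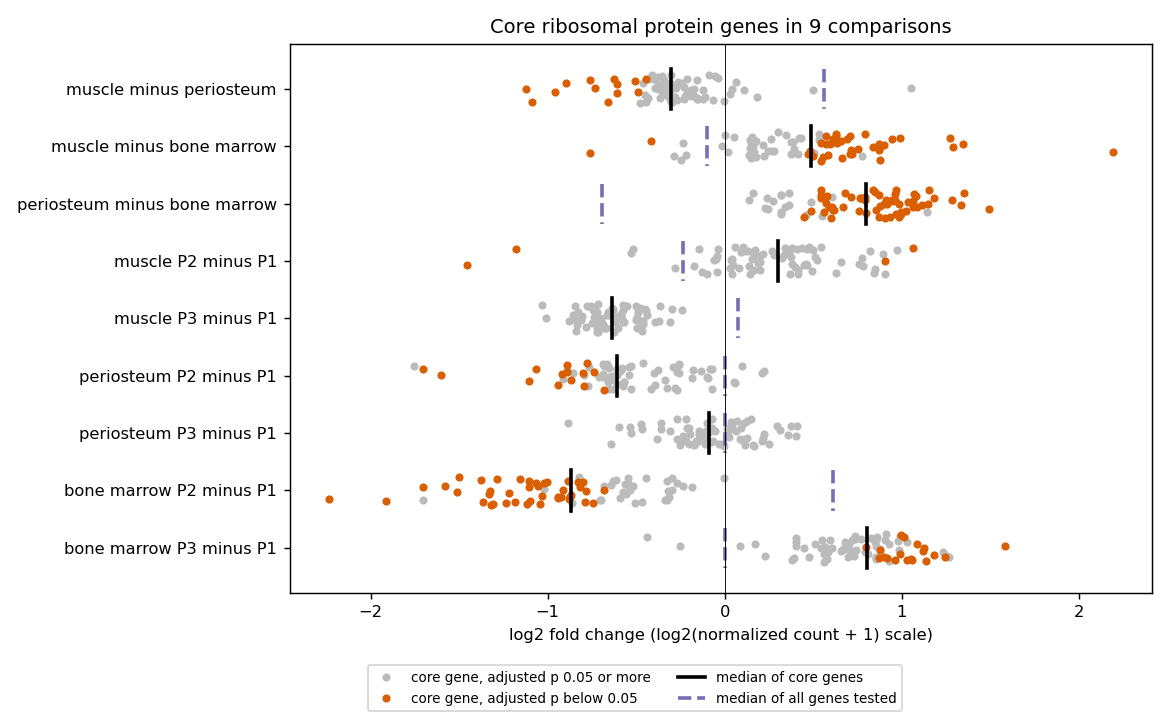
Log2 fold change (x axis, on the log2(normalised count + 1) scale) of each core gene (point, spread vertically for display) in 9 comparisons (y axis). Orange points passed at an adjusted p below 0.05, solid bars mark the core median and dashed bars the median of all genes tested. Core genes lie above the median of all genes in periosteum against bone marrow (0.80 and -0.69) and below it in bone marrow P2 against P1 (-0.87 and 0.61).

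Whether a change differed between tissues was tested as a difference of differences. The change from P1 to P2 was lower in bone marrow than in muscle for 33 core genes and higher for 1, where 7.72% of all genes passed as lower. Of the 33, 20 were beyond the DEG fold, for which the share of all genes is not given here. Rpl38 (-2.39, SE 0.46, adjusted p = 6.59e-04) and Rpl36 (-2.14, SE 0.43, adjusted p = 0.00107) differed most, and Rpl3 was the 1 higher (1.14, SE 0.37, adjusted p = 0.0304). This count of 34 was 21 without bone marrow P2 replicate 3 and 6, 4 of them higher, with a median of 0.04, when libraries had the same sum without globin and myofibre genes. The change to P2 was lower in periosteum than in muscle for 12, where 6.34% of all genes passed as lower, Rps20 (-1.87, SE 0.46, adjusted p = 0.00966) and Rps2 (-1.63, SE 0.36, adjusted p = 0.00426) among them. The 12 became 4 without muscle P1 replicate 1 or 3 or muscle P2 replicate 2 or 3, 5 without periosteum P1 replicate 1 and 20 without bone marrow P2 replicate 3. With the same sum without globin and myofibre genes, 3 were lower and 2 higher.

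The change from P1 to P3 was higher in bone marrow than in muscle for 24 core genes, where 0.971% of all genes passed as higher, with a median difference of 1.46 against -0.12 over all genes. Rpl36a (2.42, SE 0.54, adjusted p = 0.0164) and Rpsa (2.12, SE 0.54, adjusted p = 0.0392) differed most among those passed. The 24 were 55 without bone marrow P3 replicate 1, 1 without its replicate 2 and 0 by limma without its replicate 3, where 60 had an unadjusted p under 0.05. Without muscle P1 replicate 2 or 3, any library of muscle P3 or any of bone marrow P1 it fell to between 3 and 14. No core gene passed by limma in the remaining 3 comparisons: periosteum less muscle for P3, bone marrow less periosteum for P2 and bone marrow less periosteum for P3. Of all genes, 0.249%, 7.31% and 0.537% passed there at the adjusted threshold. At an unadjusted p under 0.05 there were 6, 4 and 36 core genes. The share of all genes at that looser threshold is not given here.

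Relative to the median core gene of the same library, single core genes were also tested, with the same shift applied to all genes. In muscle P2 against P1, Rpl3 (-1.90), Rps24 (-1.62) and Rps19 (-0.57) were lower on this scale, where 5.96% of all genes were, and Rps2 (0.62) higher, where 3.43% were. In bone marrow P2, 9 of 76 core genes were lower, where 6.53% of all genes were, and 10 higher, where 34.2% were, led by Rpl38 (-1.37) and Rpl27a (-0.83) and by Rps29 (0.87) and Rpl23a (0.69). In bone marrow P3, 3 were lower, Rpl38 (-0.95), Rpl41 (-0.61) and Rps28 (-0.52), where 6.45% of all genes were lower, and none higher. In periosteum P2, Rpl18 (-1.06) was lower, where 6.12% of all genes were, and 7 were higher, where 13.1% were, Rps16 (0.77) and Rps29 (0.76) first. Against bone marrow, muscle was lower in 19 core genes, where 22.2% of all genes were lower, and higher in 10, where 8.63% were, with Rpl38 (-1.28) and Rpl3 (-0.94) lowest and Rps20 (0.83), Rps27 (0.77) and Rpl30 (0.75) among the highest. Rpl38 and Rps28 were lower on this scale in both P2 and P3 of bone marrow, which share the P1 libraries.

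Paralogs of core genes followed their own patterns. Rpl3l, the striated muscle form of Rpl3, was at 6873, 6369 and 15032 in muscle P2 and at 133, 119 and 106 in muscle P1. It stayed at or under 55.2 in the 21 libraries of the other groups. The rise from P1 to P2 was 6.18 on the log2 scale (SE 1.15, adjusted p = 8.22e-04), while Rpl3 fell in the same libraries. Muscle P2 was thus the group in which the mean of Rpl3l (9424 ± 4862, SD, n = 3) lay above that of Rpl3 (2818 ± 434). Ckm and Acta1, genes of the myofibre, were highest in the same group, with means of 183438 and 1144030, and their part in this was not tested. The rise of Rpl3l differed from the change in periosteum (difference -5.18, SE 1.62, adjusted p = 0.0377). Its difference from the change in bone marrow did not pass. There Rpl3l was at 3.76 to 11.7 in P1 and at 27.6 to 55.2 in P2, without overlap. A rise particular to muscle was therefore not shown.

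Rps27l and Rpl36al rose in muscle P2, and the difference of that change from the other tissues passed. Rps27l, a p53 target, was at 1227, 1663 and 1597 in muscle P1 and at 4003, 4061 and 4926 in P2 (1.54, SE 0.33, adjusted p = 0.0035). Rpl36al, an intron-poor copy of Rpl36a, was at 1055, 1614 and 1395 and at 3820, 3403 and 3769 (1.46, SE 0.38, adjusted p = 0.0152), a call lost without muscle P1 replicate 1 (adjusted p = 0.0815). Both calls were lost with libraries set to the same sum and under quantile normalisation. In P2 of periosteum Rpl36al was lower than in P1 (-1.30, SE 0.38, adjusted p = 0.0186, lost without P1 replicate 2 or P2 replicate 2, up to 0.105, without a trend, 0.059, and with the groups fitted alone, 0.31) and in P2 of bone marrow also (-1.53, SE 0.38, adjusted p = 0.00331), a call lost with the same sum without globin and myofibre genes (-0.81, adjusted p = 0.0844). Rps27l fell by 0.87 in bone marrow P2 (-0.87, SE 0.33, adjusted p = 0.0441), and leaving out any of 11 libraries ended that call (adjusted p up to 0.293), as did the same sum without globin and myofibre genes (-0.15, adjusted p = 0.756). The difference of bone marrow from muscle in the change to P2 was -2.41 for Rps27l (SE 0.47, adjusted p = 7.88e-04) and -2.99 for Rpl36al (SE 0.54, adjusted p = 3.57e-04). That of periosteum from muscle was -2.23 (SE 0.47, adjusted p = 0.00294) and -2.75 (SE 0.54, adjusted p = 0.00153). In bone marrow P1 Rpl36al stood at 2041 to 2203, above Rpl36a at 744 to 790, while in muscle P1 the values were 1055 to 1614 and 1560 to 2101.

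Rps4l, a copy of Rps4x, had the lowest log2 change in bone marrow P2 of the members detected in every library. It was at 1085, 704 and 708 in P1, at 5.9, 11.0 and 21.9 in P2 and at 319, 94.9 and 155 in P3. The 3 groups did not overlap. The change to P2 was -6.05 (SE 0.62, adjusted p = 9.02e-08) and that to P3 -2.28 (SE 0.62, adjusted p = 0.0222), the second lost without P1 replicate 1, 2 or 3 or P3 replicate 2 or 3 (adjusted p up to 0.156) and with the same sum (-1.31, adjusted p = 0.216). Rps4x itself fell to a fitted 0.499 of its P1 level (adjusted p = 0.00849), with 2843 to 3603 in P1 and 1051 to 2074 in P2. In no other tissue did Rps4l come under 187. The difference of bone marrow from muscle in the change to P2 was -5.15 (SE 0.87, adjusted p = 1.90e-04) and that from periosteum -5.47 (SE 0.87, adjusted p = 2.87e-04).

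Rpl39l, the testis form of Rpl39, was at 270, 157 and 270 in bone marrow P1 and at 0, 0 and 12.4 in P2 (-6.57, SE 1.74, adjusted p = 0.00547). In periosteum it was at 103 to 361 in P1, at 199, 162 and 0 in P2 and at 1.77, 1.98 and 263 in P3. Rpl22l1, a copy of Rpl22 which binds RNA outside the ribosome, fell by 1.18 in bone marrow P2 (-1.18, SE 0.40, adjusted p = 0.0239), a call lost without P1 replicate 1, 2 or 3 or P2 replicate 3 (adjusted p up to 0.15) or with the same sum without globin and myofibre genes (-0.46, adjusted p = 0.341), and was higher in periosteum than in bone marrow (0.99, SE 0.23, adjusted p = 0.00278). Its change to P2 was lower in bone marrow than in muscle (-1.81, SE 0.56, adjusted p = 0.0232). Rps27rt, a retrocopy of Rps27 that shares 91.1% of its 50-base stretches with it, was at 62.0 to 444 in muscle and periosteum libraries and at 0 to 95.1 in bone marrow, lower there than in muscle (2.83, SE 0.61, adjusted p = 9.59e-04) and than in periosteum (2.73, SE 0.61, adjusted p = 0.00199). Rps27 shares 98.6% of its own stretches with Rps27rt, so how reads were split between them is uncertain. Rpl7l1 and Rpl37rt did not pass in any of the 9 comparisons, with smallest adjusted p-values of 0.123 and 0.0945. Rpl10l, a testis copy of Rpl10, was listed at 0 in 23 of 27 libraries and reached 9.4 at most.

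**Figure D4:**
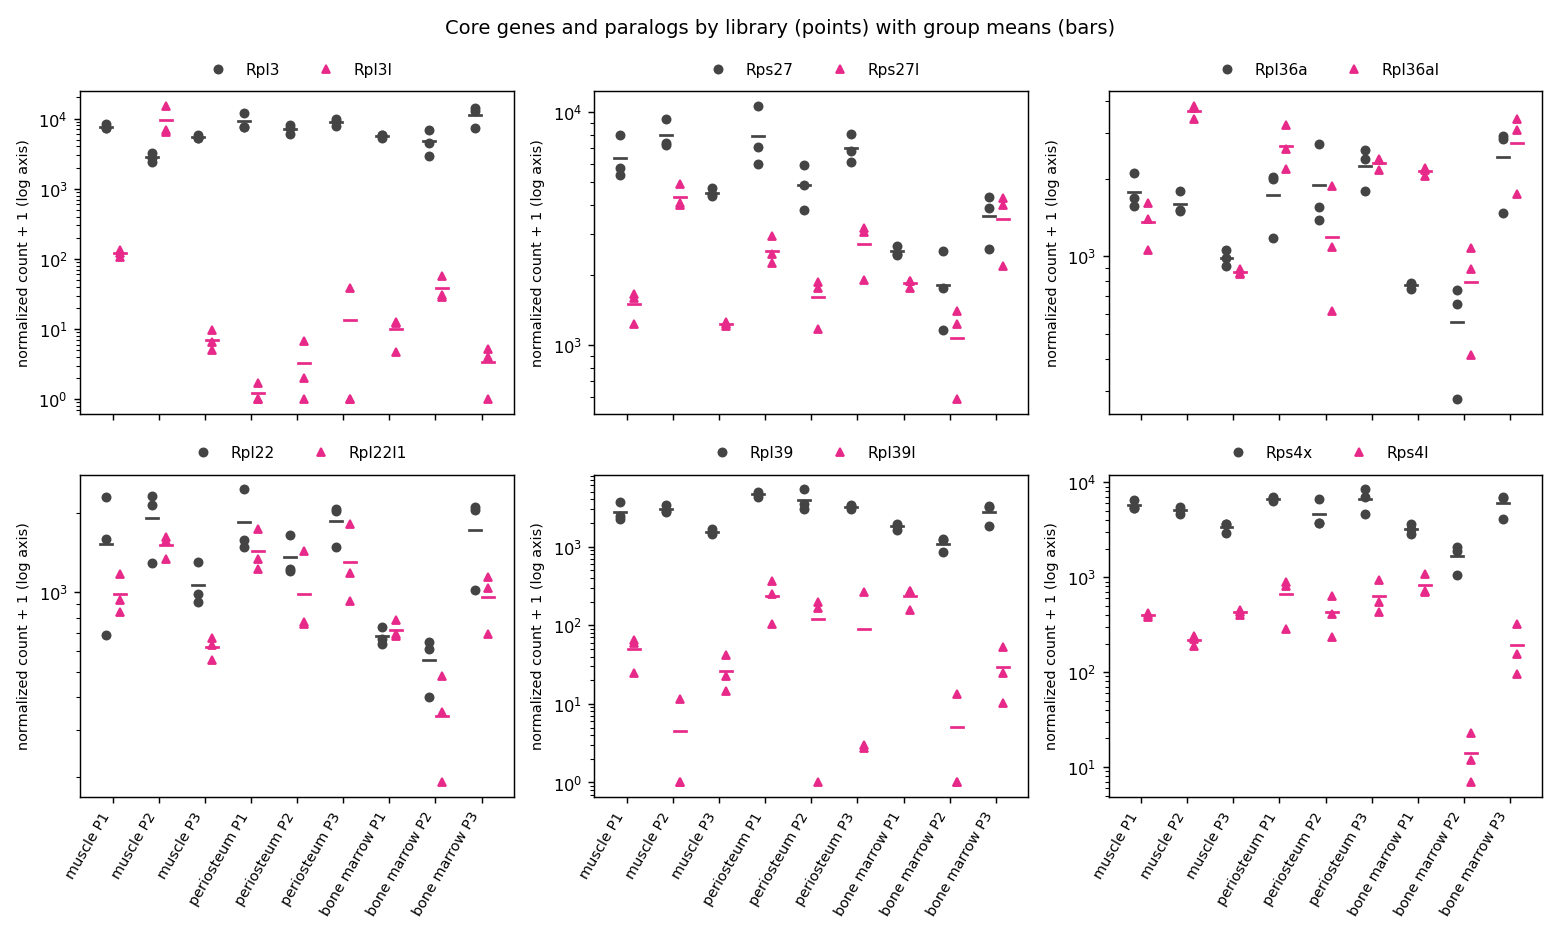
Normalised count + 1 (log axis, y) of 6 core genes (circles) and a paralog of each (triangles) in 3 libraries per group (x axis), with group means as bars. Rpl3l lies above Rpl3 only in muscle P2, and Rps4l falls to 5.9 to 21.9 in bone marrow P2.

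Other genes of the ribosome's life were read from lists. Rack1, a scaffold on the small subunit, moved with the core, falling by 1.06 in bone marrow P2 (-1.06, SE 0.29, adjusted p = 0.00658). Fau, which encodes a fusion of a ribosomal protein with a ubiquitin-like domain, was higher in periosteum than in bone marrow (0.57, adjusted p = 0.0277, limma). Of 28 translation factors, 7 passed as lower, where 11.4% of all genes did, and 2 as higher, where 24.2% did, in bone marrow P2 against P1, with a median of -0.39. The elongation factor gene Eef1a1 fell by 1.51 (-1.51, SE 0.20, adjusted p = 5.32e-06) and Eef1b2 by 1.83 (-1.83, SE 0.37, adjusted p = 6.45e-04), while the poly(A)-binding protein gene Pabpc1 rose by 2.64 (2.64, SE 0.36, adjusted p = 6.58e-06). In muscle P2, 4 passed as higher, where 4.99% of all genes did, Eif2s2 (1.90) and Tpt1 (1.49) first, and 1 as lower, Eef1a1 (-1.56, SE 0.20, adjusted p = 1.40e-05).

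Of 55 ribosome biogenesis factors, 8 passed as lower, where 11.4% of all genes did, and 0 as higher in bone marrow P2, with Gnl3 (-5.55) and Wdr43 (-4.60) lowest and a median of -0.96. In bone marrow P3, 2 of 55 passed as higher, near the 3.51% of all genes, the nucleolar proteins Ncl (1.81, SE 0.39, adjusted p = 0.00347) and Npm1 (1.79, SE 0.38, adjusted p = 0.00342), with a median of 0.88. In periosteum P2, 10 passed as lower, where 10.7% of all genes did, Wdr74 (-5.80) and Nop14 (-5.73) first, and 2 as higher, where 9.35% did, Noc3l (2.45) and Rrn3 (2.16). In muscle P2 none passed by limma, and 4 had an unadjusted p under 0.05.

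Among 22 growth regulators, Myc, which drives ribosomal transcription, had a mean of 916 ± 101 in bone marrow P1, 125 ± 63.1 in P2 and 859 ± 137 in P3 (SD, n = 3). Its change to P2 was -2.99 (SE 0.42, adjusted p = 7.76e-06). Its level in muscle was 2.25 higher than in bone marrow on the log2 scale (SE 0.24, adjusted p = 1.14e-07), without overlap. Mxd4, of the family that opposes MYC, also fell in bone marrow P2 (-5.36) and P3 (-2.55). The list did not fall as a whole. In bone marrow P2, 3 of 22 passed as higher, where 24.2% of all genes did, and 3 as lower, where 11.4% did. Single changes there lay between -5.36 and 6.15. Eif4ebp1, the translation repressor that mTOR phosphorylates, rose by 2.41 in muscle P2 (SE 0.39, adjusted p = 1.79e-04). Mtor and Larp1 did not pass in any of the 9 comparisons, with smallest adjusted p-values of 0.126 and 0.0959.

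Of the 8 ribosome rescue factors tested, Gtpbp2, which acts on stalled ribosomes, rose in P2 of periosteum (3.08, SE 0.55, adjusted p = 3.33e-04) and of bone marrow (2.47, SE 0.55, adjusted p = 0.00151). Pelo was lower in muscle and periosteum than in bone marrow (-2.27, adjusted p = 0.033, and -3.44, adjusted p = 0.00238, limma), and Hbs1l did not pass. Genes of the mitochondrial ribosome took another course in muscle: 24 of 79 passed as higher in P2, where 4.99% of all genes did, and 0 as lower, with a median of 1.70 against 0.30 for the core and -0.24 for all genes. Mrpl12 (2.91) and Mrpl30 (2.86) led them. For this list, values are given on the deposited scale only. Its summed counts were 1.81e+07 to 1.88e+07 in muscle P2 and 1.12e+07 to 1.23e+07 in P1. Myofibre genes took 10.8% to 12.01% of the sum in muscle P2, and the part of either was not tested. In bone marrow P2, 12 mitochondrial ribosomal genes passed as lower, where 11.4% of all genes did, and 2 as higher, where 24.2% did, with a median of -0.80.

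The core genes followed each other closely over the 27 libraries. The Pearson correlation of a core gene with the median of the other core genes, on the log2 scale, had a median of 0.913 and lay above 0.8 for 62 of 76. Of all genes, core genes included, 92 (0.499%) lay above 0.8, there against the median of all core genes. Rpl23 (0.975) and Rpl36 (0.968) were among those most like the rest. Rpl3 (0.387), Rpl38 (0.646), Rpl10a (0.652) and Rpl5 (0.670) were among those least like it. Libraries share normalisation and composition, so these values are descriptions. Of the paralogs, Rpl22l1 (0.941) and Rps27l (0.801) were like the core and Rpl3l (0.0676) and Rpl39l (0.0852) were not. Outside the set, the most similar rows were Gm10275 (0.956), Rps23-ps (0.946), Gm15500 (0.941) and Rpl31-ps8 (0.934), followed by Tomm7 (0.914), Mif (0.899), Rack1 (0.886) and Eef1b2 (0.885).

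Levels between genes were compared per kb of mRNA, with the length taken from an annotated GENCODE M21 transcript of each gene. Among core genes these lengths ran from 345 bases for Rps27 to 5179 for Rps15a. Whether the cells used these transcripts was not tested, and the order of genes by level can depend on this choice. Rpl41 (23187 normalised counts per kb, mean over 27 libraries), Rps29 (18081), Rps27 (15008), Rpl37a (13653) and Rpl13 (12073) were highest, and the median core gene was at 4434. Rps12 (3.49), Rpl5 (147), Rpl12 (210) and Rps25 (260) were among the lowest. Many core mRNAs share long stretches with transcripts of other genes. Over the same annotated transcripts, a median of 44.7% of a core gene's 50-base stretches stood also in another gene's transcript. For 32 of 77 genes it was over 50%. Where the transcript taken is longer than that of the cells, the level per kb is understated, and the percentage shared can be too. Level and shared sequence were weakly related across the 77 (Spearman's rho 0.296). Both were divided by the length of the same transcript, so part of this value can follow from length alone. It cannot tell how shared sequence relates to level.

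Of these low genes, Rps12, Rpl5 and Rpl12 each had 1 row that holds a large part of their sequence at a far higher level. Rps12 was listed at 0 in 23 of 27 libraries, while Rps12-ps3, which holds 83.2% of its stretches, had a mean of 1810. Rpl5 had a mean of 300 and Gm15500, a transcribed processed pseudogene with 48.5% of its stretches, 4484. For Rpl12 and Gm10275 the means were 261 and 2001, with 49.0% shared. These percentages are of the annotated transcripts taken, of 584 bases for Rps12, 2045 for Rpl5 and 1242 for Rpl12. Each pair is shown by 30 coding bases that stand in both, in lower case, from GENCODE M21 (GRCm38).
Rps12, exon 3 of 6, chr10:23786851-23786880, minus strand, and Rps12-ps3, chr19:59322385-59322414, plus strand: catagctgctggaggtgtaatggacgtcaa
Rpl5, exon 2 of 8, chr5:107901870-107901899, plus strand, and Gm15500, chr7:114706131-114706160, minus strand: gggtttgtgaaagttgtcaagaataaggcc
Rpl12, exon 1 of 7, chr2:32961803-32961832, plus strand, and Gm10275, chr10:29699261-29699290, minus strand: atgccgcccaagttcgaccccaacgaggtc
Reads from such stretches cannot be assigned by sequence alone, and how they were counted was not given, so the levels of these genes are uncertain. Gm15500 fell in bone marrow P2 by 1.82 (-1.82, SE 0.30, adjusted p = 6.54e-05), beside -1.91 for Rpl5. In periosteum P2 it was -0.72 (SE 0.30, adjusted p = 0.0941) beside -1.70 for Rpl5. Gm10275 fell by 1.28 in bone marrow P2 (-1.28, SE 0.36, adjusted p = 0.00891). For Rps25, the row that holds most of its stretches (15.8%) had a mean of 1.73. Levels of other rows that share fewer of them were not examined.

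**Figure D5:**
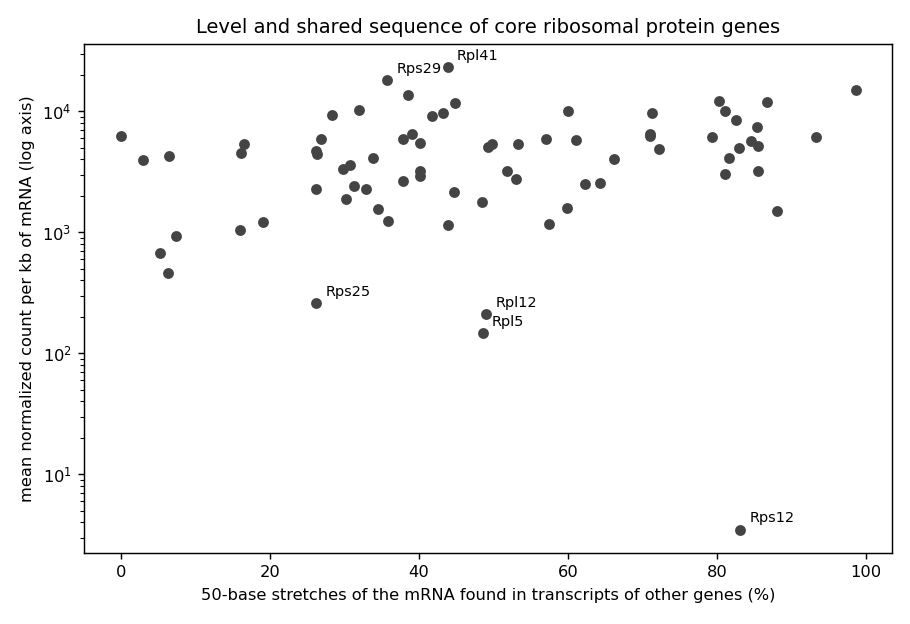
Mean normalised count per kb of mRNA (log axis, y) against the percentage of 50-base stretches of the mRNA found in transcripts of other genes (x) for 75 core genes. Rps12 lies at 3.49 with 83.2% shared, and Rpl5, Rpl12 and Rps25 lie between 147 and 260. Both values refer to an annotated transcript of each gene, which may not be that of the cells.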

How the data were processed

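RNA of sorted cells was amplified with SMART-Seq v4, made into libraries with Nextera XT and sequenced. The authors trimmed reads with Trim Galore, aligned them with STAR and used DESeq2. The deposited table holds a signal of normalized counts per gene, whose steps vary between genes, so reads could not be recovered. The genome build, annotation and counter were not given in the sources used here. A row for the reporter transgenes was left out. On these values, limma 3.58.1 in R 4.3.3 was run on log2(value + 1), where 1 is the pseudocount, with the 9 groups as coefficients, eBayes with a trend and Benjamini-Hochberg adjustment over 18442 genes with at least 10 in at least 3 libraries (11711 removed), and was tested on simulated data. There were 15 comparisons: 3 pairs of tissues, 6 of P2 or P3 with P1 in a tissue and 6 differences of these between tissues. Standard errors are on that log2 scale, which understates changes of low genes. Named genes were all paralogs and their partners, up to 3 core genes with the largest passed changes without overlap in each direction, core genes that passed against the majority, the highest, lowest and least typical core genes, 6 fixed core genes, members that failed the filter, and the largest passed changes in each pathway list. Rpl3 and Rpl38 were added to the fixed genes beyond this rule. Start sites came from RefSeq, and positions and transcripts from GENCODE M21. The rows Gnb2l1, Cirh1a and Gltscr2 are named here as Rack1, Utp4 and Nop53. The members and lists were chosen with earlier results of these data known. Some genes are not reported here and are left out of the plots that name genes. Python 3.11.15 drew the figures.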

Additional observations from a re-analysis of the deposited data

Results flagged for a closer look

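A closer look is due where the change from P1 differed between tissues by a test of the difference itself (limma, adjusted p below 0.05). For P2 this held for 12 core genes in periosteum less muscle, all lower, where 6.34% of all genes passed as lower. In bone marrow less muscle it held for 34, 33 of them lower, where 7.72% of all genes passed as lower, and 1 higher. For P3 it held for 24 in bone marrow less muscle, all higher, where 0.971% of all genes passed as higher. With 1 library left out these counts fell to as few as 4, 21 and 0. Scaling without globin and myofibre genes also lowered both P2 counts. Among paralogs, the P2 difference of periosteum from muscle was -5.18 for Rpl3l, -2.23 for Rps27l and -2.75 for Rpl36al on the log2 scale. That of bone marrow from muscle was -2.41 for Rps27l, -1.81 for Rpl22l1, -2.99 for Rpl36al and -5.15 for Rps4l, and that of bone marrow from periosteum -5.47 for Rps4l. For Rpl3 the difference of bone marrow from muscle was 1.14 for P2 and 1.46 for P3. Globin and myofibre genes moved with P2, and their part in these differences was not tested.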

How the results depend on the processing

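Alternatives numbered 11, and each of 27 libraries was left out in turn. Of 51 results for single named genes, 17 kept their call under all of these and 27 with every library left out. The 17 included Rpl3 and Rpl38 in muscle less periosteum, results counted only because these genes were added to the fixed ones. Counts of core genes passed moved most with the scaling and the variance prior, and the cause was not tested. They are given below without the share of all genes that passed under each alternative. These counts alone therefore do not tell a change of the core genes from one of all genes. Without a trend in eBayes the counts were 7 for muscle less periosteum, 21 for muscle less bone marrow, 1 for muscle P2, 2 for periosteum P2, 20 for bone marrow P2, 1 for bone marrow P3, 12 for the P2 difference of bone marrow from muscle, and 0 for that of periosteum from muscle (14 at an unadjusted p under 0.05) and for the P3 difference of bone marrow from muscle (48). With the same sum per library they were 7 for muscle P2, 59 for periosteum P2, 2 for periosteum P3 and 72 for bone marrow P3, and 21 (P2) and 72 (P3) for bone marrow less muscle, 1 for P3 of periosteum less muscle and 42 for P3 of bone marrow less periosteum. When that sum left out globin and myofibre genes, they were 34 for muscle less periosteum, 2 for periosteum P3, 7 for bone marrow P2 and 72 for bone marrow P3, and the differences gave 5 and 1 (P2 and P3, periosteum less muscle), 6 and 72 (bone marrow less muscle) and 41 (P3, bone marrow less periosteum). Quantile normalisation gave 40 for muscle less periosteum, 36 for periosteum P2, 59 for bone marrow P3, and 6, 1, 19, 63 and 8 for the same differences in that order. Centring on the core median, which removes a shared change by construction, gave 29 for muscle and 26 for periosteum less bone marrow, 8 for periosteum P2, 19 for bone marrow P2, 3 for bone marrow P3, 10 for P2 of periosteum less muscle, 16 and 1 (P2 and P3) for bone marrow less muscle and 1 for P2 of bone marrow less periosteum. It also turned the sign of Rpl11 (-0.20) and Rps19 (-0.26) in periosteum less bone marrow and of Rplp0 (0.040) in bone marrow P2. Without the filter on low values the counts were 7 for periosteum P2, 9 for bone marrow P3 and 6 for P2 of periosteum less muscle, and with a mean of at least 50, 29 for bone marrow P3. With only the groups compared they were 15, 16, 0 and 2 for muscle P2, muscle P3, periosteum P2 and bone marrow P3, and 60 for P3 of bone marrow less muscle. With a replicate block, muscle P2 had 7, and no other count moved by over 1.5 times. Same-numbered libraries did not deviate together (correlations of -0.0744 to 0.07 over 36 pairs of groups), so the numbers were not taken as a pairing. With 1 library left out, counts ranged from 9 to 23 for muscle less periosteum, 32 to 43 for muscle less bone marrow, 55 to 61 for periosteum less bone marrow, 2 to 9 for muscle P2, 3 to 20 for periosteum P2, 19 to 50 for bone marrow P2, 0 to 47 for bone marrow P3, 4 to 20, 21 to 46 and 0 to 2 for the P2 differences (periosteum less muscle, bone marrow less muscle, bone marrow less periosteum) and 0 to 55 and 0 to 1 for the P3 differences of bone marrow from muscle and from periosteum. With 3 libraries a group and depth unknown, changes within the spread between libraries were not detectable.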
